A study of Schizosaccharomyces pombe with 12 samples.

Results

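The transcript pool described here is that of wild-type Schizosaccharomyces pombe (fission yeast) growing exponentially in rich medium made with ordinary water. It was taken from 4 of the 12 samples of the series, titled S0 with replicate numbers 1 to 4, and no value of the other 8 samples, which were grown in D2O medium, enters any result. Within these 4 samples, 5105 protein-coding genes among the 7015 listed features were ranked by their mean RPKM, a read density in which the count is divided by the feature length and by the sample total. All of these cells were wild type with no selection marker and untreated, their YES medium held yeast extract, glucose, adenine, uracil and leucine, and total RNA was prepared with hot phenol. The titles number the samples as replicates but do not say whether they came from separate cultures, so the spreads given below may be partly technical.

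A growing yeast cell spends much of its transcription on making ribosomes, because every division needs a full new set of them. In glucose, fission yeast obtains energy largely by glycolysis and alcoholic fermentation even when oxygen is present. Genes for mating, meiosis and spore formation are mainly induced when nitrogen runs out, and genes near the chromosome ends lie in or beside silent chromatin. Many ribosomal protein and enzyme genes exist as paralogues, copies of a gene that encode similar or identical proteins.

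Total counts were 26977883, 26971908, 27031809 and 27041947 in replicates 1 to 4. Protein-coding genes held 89.1% to 89.2% of them and rRNA features 0.0655% to 0.717%, with the highest rRNA share in replicate 3. Spearman correlations of the counts over all features were 0.995 to 0.998 between samples, and each pair differed by more than counting noise, so all 4 were kept as separate samples. A count of 3 was 0.111 RPKM for a feature of 1 kb, which is the floor of detection and covers counting error only. RPKM was used because it allows genes to be compared within a sample. It depends on the deposited feature lengths and on how reads were shared between overlapping features, and 2179 of the protein-coding genes (42.7%) overlap another one.

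The growth state named by the labels was checked on markers. The 9 histone genes of the dividing cell list, with the G2/M cyclin gene cdc13, the replication licensing gene cdc18 and the ribonucleotide reductase gene cdc22, had a median of 357.7 RPKM, and 11 of the 12 lay above the median of all genes, 34.5 RPKM. The exception was cdc18, with 24.2, 21.3, 19.3 and 23.1 RPKM in replicates 1 to 4. The 15 markers of starvation and sexual differentiation had a median of 14.3 RPKM, and 4 of them lay above the median of all genes. Among these 4, the feature of spo6 (37.9 RPKM) lies wholly within that of lam2, so its reads can stem from both. The lowest of the 15 markers was mei3, the inducer of meiosis that blocks the Pat1 kinase, with 0.527, 0.738, 0.605 and 0.579 RPKM from 20 to 28 reads. The meiotic cohesin gene rec8 had 2.69 to 3.304 RPKM, the meiotic transcription factor gene mei4 5.41 to 6.35 and fbp1, the gluconeogenic enzyme repressed by glucose, 11.3 to 18.8. The transcription factor gene ste11, which switches on sexual differentiation, was near the median of all genes at 42.3, 35.4, 32.7 and 38.5 RPKM. The highest starvation marker was mfm2, a precursor gene of the M-factor mating pheromone, at 184 to 231 RPKM, whereas mfm1 had 9.57 to 10.7 and mfm3 11.4 to 17.03. Summed over each list, the dividing markers had 4329 to 4756 RPKM per sample and the starvation markers 438.3 to 508.3, and no marker was at 0 in any sample. In bulk RNA a low level in every cell and a high level in few cells cannot be told apart.

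The pool was concentrated in few genes. The first 201 of the 5105 genes (3.94%) held 50% of the summed RPKM, and by share of reads 323 genes were needed. When each sample was ranked alone, 206, 209, 180 and 208 genes were needed in replicates 1 to 4, so replicate 3 was the most concentrated and the other 3 lay close together. The first 10 genes held 9.26% ± 0.263 of the pool (SD, n = 4), the first 100 held 36.3% ± 1.09, and the lower-ranked 50% of all genes held 9.12% ± 0.407. Most genes were at moderate levels, with 3825 (74.9%) between 10 and 100 RPKM, 723 between 100 and 1000 and 99 at 1000 or more. A further 382 genes lay between 1 and 10 RPKM, and 76 (1.49%) were under 1.

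**Figure D1:**
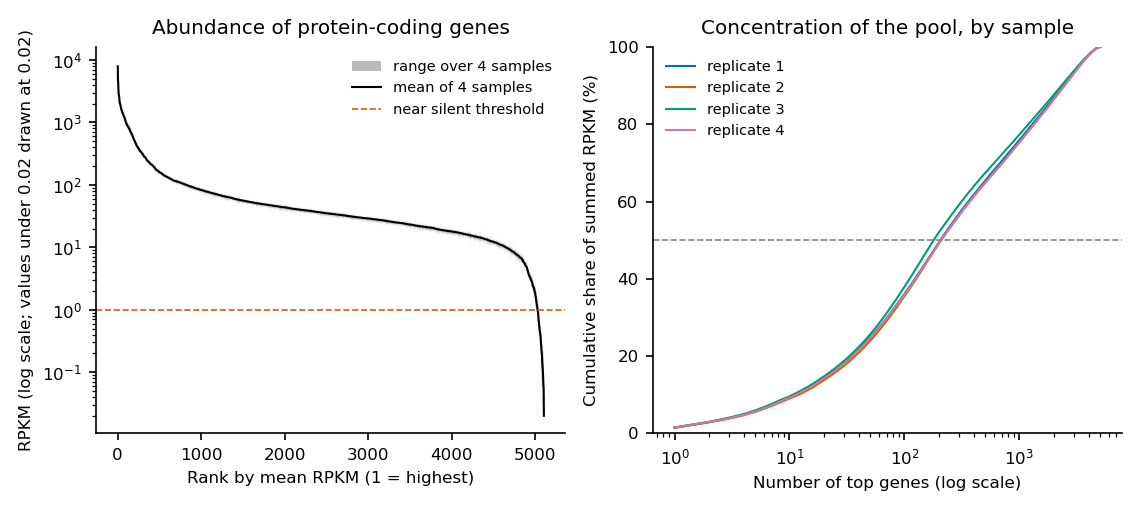
Left, RPKM (log scale) of 5105 protein-coding genes against their rank, with the mean of the 4 samples as a line, the range over samples as a grey band and the near silent threshold of 1 RPKM dashed. Right, the cumulative share of the summed RPKM (%) against the number of top genes (log scale) in each sample, where the line of replicate 3 crosses 50% first, at 180 genes.

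Glycolytic enzymes and elongation factors filled the top ranks. The first gene was tdh1 (SPBC32F12.11), glyceraldehyde-3-phosphate dehydrogenase, with 7623, 7617, 8452 and 7994 RPKM in replicates 1 to 4. The second was fba1 (SPBC19C2.07), fructose-bisphosphate aldolase, with 7787, 7694, 7819 and 7780 RPKM. These ranges overlap, so the order of the first 2 genes is not fixed by the data. The third, the enolase gene eno101 (SPBC1815.01), had 5406, 5229, 6143 and 5021 RPKM and lay apart from its neighbours on either side.

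Among ranks 4 to 8 the range of each gene overlaps that of the next one of these 5. In falling order of the mean these were tef103 with 4673 ± 218 RPKM (SD, n = 4), the phosphoglycerate mutase gene gpm1 with 4628 ± 278, the pyruvate decarboxylase gene pdc101 with 4545 ± 143, tef101 with 4169 ± 240 and tef102 with 3961 ± 230. The 3 tef genes encode elongation factor 1 alpha, which brings aminoacyl-tRNA to the ribosome. Rank 10 was sks2 (3085 ± 176 RPKM), an Hsp70 chaperone that binds the ribosome and the emerging chain. Rank 13 was the pyruvate kinase gene pyk1 (2828 ± 198 RPKM), and ranks 11, 12, 14 and 15 were the ribosomal protein genes rpl13, rpl8, rpl44 and rps7, between 2866 and 2734 RPKM. The feature of rpl44 lies wholly within that of pli1, a SUMO ligase gene, so reads counted for either can stem from both.

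Ranks 9 and 20 cannot be read as the level of the named gene. SPAC27E2.11c had 3653, 3264, 2860 and 3423 RPKM, but its count lay within 2% of that of the neighbouring non-coding RNA prl53 in every sample, and its deposited feature is 2150 bases long against 353 bases of RefSeq exon. SPCC13B11.02c, at 2387 RPKM, followed adh1 in the same way, with a feature of 3823 against 417 bases. For adh1 itself, the main alcohol dehydrogenase, the deposited feature of 3463 bases is 2.17 times the RefSeq exon length of 1598. Its 2634 ± 49.2 RPKM (rank 18) would be 5709 with the RefSeq length (rank 5). Antisense features at adh1 also had nearly the same count, and the strand setting of the counting is not given, so sense and antisense reads cannot be told apart. Over all genes, 4036 (79.1%) had a deposited length within 10% of the RefSeq exon length, and 95 of the first 100 genes were also among the first 100 with RefSeq lengths.

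Sorted by function, the largest share belonged to the ribosome itself. The 142 cytosolic ribosomal protein genes, 2.78% of all genes, held 26.8%, 27.8%, 29.8% and 27.3% of the summed RPKM in replicates 1 to 4 (mean 27.9% ± 1.33, SD, n = 4). Of them 141 were over 100 RPKM and 64 were among the first 100 genes. The lowest, rpl1603, had 61.2, 63.8, 60.7 and 61.8 RPKM, and its feature lies wholly within apl1, an adaptor complex gene that itself had 57.9 ± 1.49 RPKM. As a share of protein-coding reads, in which long transcripts weigh more, the ribosomal protein genes held 12.3%. By reads, translation factors (6.67%) came before glycolysis (5.74%), the reverse of the order by RPKM given below.

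The other parts of protein synthesis held less of the pool per gene. The 53 translation factor genes held 6.25% ± 0.143, of which the 3 tef genes were the top members, and tef3, the fungal elongation factor 3, followed with 2707 ± 88.1 RPKM. The 34 aminoacyl-tRNA synthetase genes held 0.896% ± 0.00599 and had no gene in the first 100, with gus1, the glutamate enzyme, highest at 372.5 ± 8.78 RPKM and msm1, annotated as a methionine enzyme, lowest at 14.5 ± 0.736. Ribosome biogenesis, which covers the proteins that process and assemble rRNA, held 2.22% ± 0.0596 over 134 genes. Its highest member was gar2, the nucleolin gene, at 443.5 ± 19.7 RPKM, and the U3 snoRNP gene nop56 had 372.6 ± 5.74. The median of the biogenesis genes was 69.2 RPKM, whereas that of the ribosomal protein genes was 936.7. The RNA polymerase subunit genes held 0.402% ± 0.0131 over 29 genes, and the 3 highest, rpa2 (148.8 ± 3.03 RPKM), rpa34 and rpa49, belong to polymerase I, which transcribes the rRNA. Those of rpa34 and rpa49 wholly overlap the neighbours sme1 and sec67.

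Glycolysis held 6.57% ± 0.195 of the pool with only 13 genes, and 7 of these were in the first 100. Besides those above, the phosphoglycerate kinase gene pgk1 had 2080 ± 148 RPKM and the triosephosphate isomerase gene tpi1 1577 ± 139. The early steps were lower. The phosphofructokinase gene pfk1 had 923 ± 61.2 RPKM, the glucose-6-phosphate isomerase gene pgi1 576.5 ± 12.2 and the hexokinase genes hxk2 and hxk1 400.2 ± 14.4 and 168 ± 3.97. With RefSeq exon lengths hxk2 would have 688.7 RPKM and hxk1 182.7, so the level of hxk2 depends on the length used. Fermentation held 1.46% ± 0.0295 over 10 genes, nearly all of it from pdc101 and adh1, and 5 of the 10 were under 10 RPKM. The 61 nuclear genes of respiration and the TCA cycle together held 1.37% ± 0.0419. The highest were atp2, the catalytic subunit of the mitochondrial ATP synthase, with 605.4 ± 22.9 RPKM, the cytochrome c gene cyc1 with 488.6 ± 38.3 and the NADH dehydrogenase gene nde2 with 307.5 ± 18.4.

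Biosynthesis and housekeeping followed. Amino acid synthesis held 2.98% ± 0.0442 over 69 genes, led by met26 (2082 ± 87.3 RPKM), the last enzyme of methionine synthesis, ilv5 (1678 ± 139) of the branched-chain pathway and shm1 (913.7 ± 33.8), which interconverts serine and glycine. Cytosolic and ER chaperones held 2.49% ± 0.0276 over 27 genes, with ssa2 (2679 ± 107 RPKM) and hsp90 (1594 ± 36.1) after sks2, while the small heat shock gene hsp16 had 21.2 ± 3.28. Lipid and sterol synthesis held 1.10% ± 0.0632, and its highest member was ole1, the acyl-CoA desaturase gene, with 1463 ± 116 RPKM. The 18 cytoskeleton genes held 0.777% ± 0.0208, and the actin gene act1 had 1814, 1778, 1795 and 1820 RPKM. Actin thus varied little between samples, and so did fba1, whose coefficients of variation were 1.06% and 0.688%. Proton pumps held 0.623% ± 0.0611, which was mostly pma1, the plasma membrane proton ATPase, at 2412, 1838, 1839 and 1960 RPKM. Replicate 1 was highest for pma1 and the other 3 samples lay together.

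Small classes each held under 1% of the pool. Nucleotide synthesis held 0.800% ± 0.00697, histones 0.773% ± 0.0472, cell wall genes 0.767% ± 0.0520, the proteasome 0.582% ± 0.0151 and redox defence 0.539% ± 0.0134. The 35 proteasome genes lay in a narrow band from 37.3 to 135.6 RPKM, so that the highest, mts4, held 4.35% of the list's total. DNA replication held 0.227% ± 0.00834 over 30 genes, and of these only pcn1, the sliding clamp PCNA, was over 100 RPKM, at 154.8, 178.4, 152.6 and 171.2. The 27 cell cycle regulators held 0.151% ± 0.00808, and cdc13 was the only one over 100 RPKM. The 4043 genes in none of the lists held 39.95% ± 1.27.

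**Figure D2:**
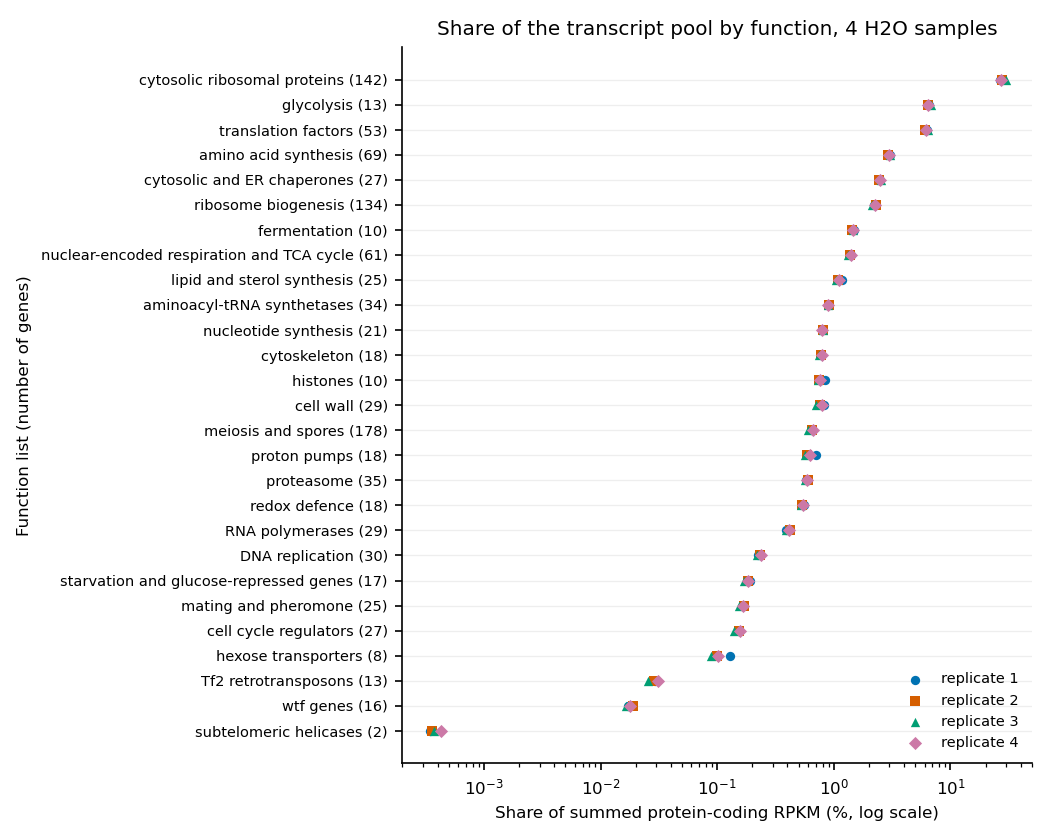
Share of the summed protein-coding RPKM (%, log scale) held by each function list in each of the 4 H2O samples, with the number of genes in parentheses. Ribosomal proteins lie between 26.8% and 29.8% and are followed by glycolysis and translation factors, whose order reverses by share of reads, and replicate 3 is the highest for ribosomal proteins.

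Most genes of the sexual cycle were present at low levels. The 178 genes listed for meiosis and spores, mostly by symbol, held 0.639% ± 0.0268 of the pool with a median of 13.6 RPKM. Of these 67 were under 10 RPKM and 5 under 1, while 3 were over 100. Over all protein-coding genes 1.49% were under 1 RPKM, 7.48% between 1 and 10, 14.2% between 100 and 1000 and 1.94% at 1000 or more. The 3 genes of the meiosis and spores list over 100 RPKM were mug64 (196 ± 4.22 RPKM), mug37 (117.2 ± 8.38) and spo20 (113.8 ± 4.69). Of these, mug64 is a BAR domain gene, and spo20 encodes a phospholipid transfer protein that also serves secretion in growing cells. The count of mug64 lay within 2% of that of an antisense feature and the feature of mug37 overlaps sar1 by 44.5%. The 25 mating and pheromone genes held 0.164% ± 0.00780, and after mfm2 the protease gene sxa1 was highest at 194.3, 193.3, 194.4 and 191.1 RPKM. The 17 genes listed as starvation-induced or glucose-repressed held 0.182% ± 0.00947. Phosphate genes were the highest of these, with the transporter gene pho84 at 482.2 ± 16.1 RPKM and the acid phosphatase gene pho1 at 105.5 ± 11.4, and the melibiase gene mel1 was the lowest, at 0.429, 0.227, 0.126 and 0.302 RPKM. The 13 Tf2 retrotransposons, nearly identical copies that share reads, had 10.8 to 12.6 RPKM each. The 16 wtf genes, a family that includes spore-killing drivers and suppressors of them, had a median of 3.75 RPKM and held 0.0175% ± 0.00101.

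Several families were carried largely by a single paralogue. Across 27 listed families with 70 genes, the member with the highest mean was first in every sample, and its range stood clear of the second in 24. The leading member held at least 75% of the family's summed RPKM in 9 families and at least 90% in 7. Enolase was the most uneven, with eno101 at 99.8% and eno102 at 8.32, 9.05, 8.09 and 8.15 RPKM, a ratio of 649. For pyruvate decarboxylase pdc101 held 99.6%, while pdc201 had 9.77 ± 1.10 RPKM, pdc202 7.35 ± 0.438 and pdc102 0.506 ± 0.0834. For the plasma membrane proton pump pma1 held 98.9% and pma2 had 22.4 ± 0.205 RPKM. For cytosolic Hsp70 ssa2 held 98.8% and ssa1 had 31.7 ± 1.87 RPKM. In alcohol dehydrogenase adh1 held 97.9%, with adh4 at 49.3 ± 0.426 RPKM and adh8 at 8.21 ± 0.955. The other families at 90% or over were thioredoxin (trx1, 90.05% ± 1.29) and glyceraldehyde-3-phosphate dehydrogenase (tdh1, 90.1% ± 0.728), where gpd3 had 759.8, 917, 888.5 and 896.5 RPKM. Both lay at the cut-off, with the lowest sample at 88.8% for trx1 and 89.3% for tdh1. By reads trx1 held 81.1% and tdh1 90.5%. The feature of trx2, the other thioredoxin gene, overlaps srb11 by 25.1%. The genes tdh1 and gpd3 share an identical coding stretch of 203 bases.

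Regulatory families had a clear but less exclusive leader. The type 1 phosphatase gene dis2 held 77.5% against sds21 and the 14-3-3 gene rad24 76.2% against rad25. By reads dis2 held 72.6% and rad24 76.8%, and with RefSeq lengths 71.7% and 75.8%. TOR kinase was led by tor2, the essential member that drives growth, with 52.4, 55.5, 52.6 and 58.4 RPKM against 28.5, 30.2, 28.4 and 30.3 for tor1. The mitotic cyclin cdc13 held 63.0% of the B-type cyclins, with cig2 at 40.4 ± 3.16 RPKM and cig1 at 30.8 ± 1.08. The essential glucan synthase gene bgs4 held 57.4% of its family and bgs2, which serves the spore wall, 3.94%. Among 8 hexose transporters ght8 had 318.6, 264.5, 234.8 and 264.3 RPKM, and the high-affinity transporter gene ght5 had 206.5, 143.2, 125.9 and 150.1. Both genes were highest in replicate 1 and lowest in replicate 3, and ght7 was the lowest member at 0.866 ± 0.0886 RPKM. The deposited feature of ght8 is 1.68 times its RefSeq exon length, and the family shares identical stretches of up to 248 bases.

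The ratio of the first to the second member was lowest for elongation factor 2 (1.10), histone H2A (1.11), elongation factor 1 alpha (1.12), myosin II heavy chain (1.19), aconitase (1.34) and protein kinase C (1.44). The coding sequences of tef101, tef102 and tef103 are 98.6% to 98.9% identical, with an identical run of up to 410 bases, and tef103 led with 36.5% ± 0.338. The eft201 and eft202 genes of elongation factor 2 are 99.6% identical, and eft202 had 52.3% ± 0.344. How reads were divided between such copies is not given, so these shares are uncertain. Histone H2A was split between hta1 with 445, 363.2, 380.5 and 373.2 RPKM and hta2 with 375.6, 350.7, 348.5 and 328. The ranges of the first and second member overlapped for H2A. The 3-member histone families were less even, with hht1 at 45.6% of H3 and hhf1 at 56.5% of H4. The deposited feature of hhf1 is 772 bases long against 1030 bases of RefSeq exon. With RefSeq lengths hhf1 held 46.1% of H4 and hht1 44.1% of H3, so the unevenness of H4 depends on the length used. The myosin II heavy chain gene myo2, which drives the cytokinetic ring, had 54.4% ± 0.590 against myp2, and the ranges did not overlap, but by read counts myp2 was ahead.

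**Figure D3:**
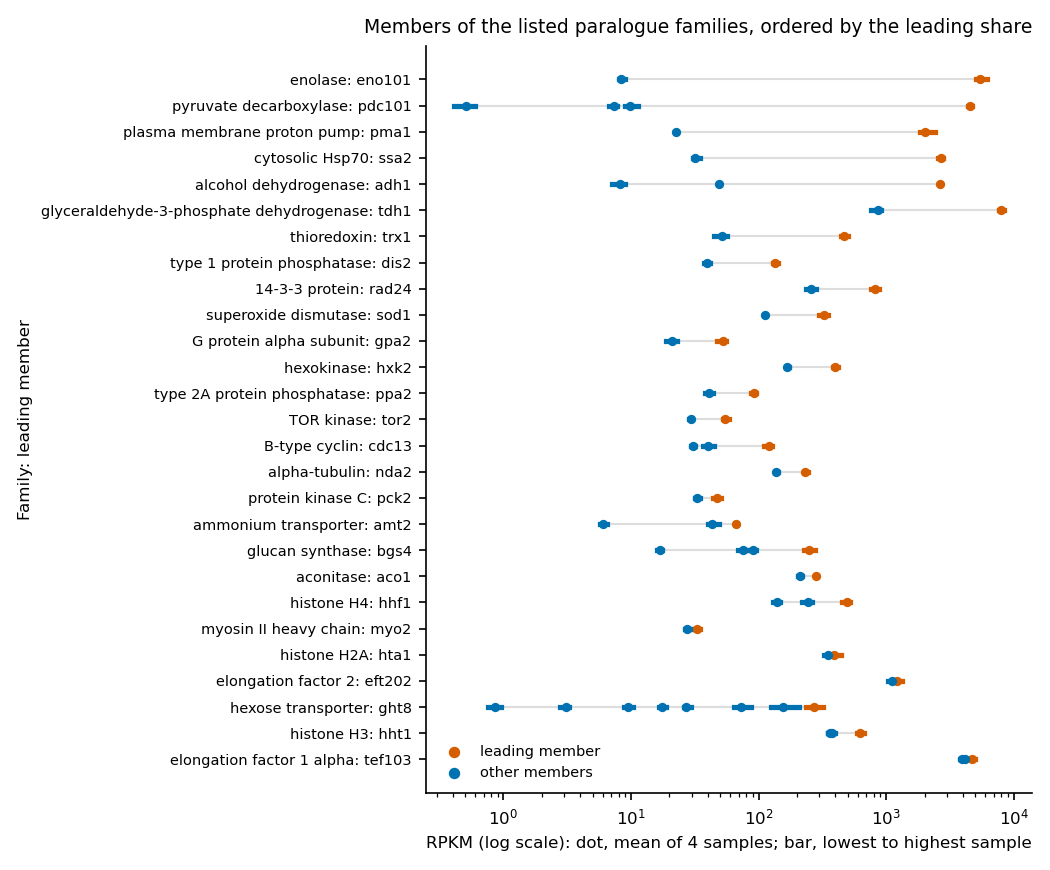
RPKM (log scale) of the members of 27 paralogue families, ordered by the share of the leading member, with the mean of 4 samples as a dot and the lowest to highest sample as a bar, the leader in orange and other members in blue. In enolase the members lie 649-fold apart, and in elongation factor 1 alpha they overlap.

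Ribosomal protein families had no leader as dominant as eno101. The 52 families described, named by number and with 109 genes, had a median leading share of 61.7%, against 65.1% in the 27 listed families. The 2 sets differ in family size. Among families of 2 members the median was 63.1% in 47 ribosomal families and 71.0% in 18 listed ones. In 8 of the 52 the leader held at least 75% and in none 90%. The ranges of the first and second member stood apart in 43 families. The most even of the 52 were rps16 (50.9% ± 2.13 for the first member), rpl37 (51.4% ± 1.16) and rpl27 (51.5% ± 1.61), and in all 3 the order changed between samples. The least even were rpl1, where rpl101 had 1699 ± 170 RPKM and rpl102 223.2 ± 15.3 (88.3% ± 0.966 for rpl101), rpl30, where rpl3001 had 855.4 ± 88.6 and rpl3002 117.3 ± 2.22 (87.9% ± 1.19), and rpl34, where rpl3401 had 1459 ± 70.5 and rpl3402 210.6 ± 11.7 (87.4% ± 0.665). Identical runs of 100 bases or more joined the members of 4 families, rpl3, rpl10, rpl12 and rps14, where shared reads make the split uncertain.

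Many ribosomal protein promoters of fission yeast carry the HomolD box, an element that stands in for a TATA box. The letters CAGTCACA, on either strand, were sought in RefSeq promoters of assembly ASM294v3 from 250 bases before to 50 after the annotated transcript start. They were found for 90 of the 142 ribosomal protein genes (63.4%), against 137 of 5104 protein-coding promoters (2.68%) and 0.947% of those of other proteins. None of the 76 near silent genes had them, but this set is too small to tell that from the 0.947% share. Of the 36 genes among the first 100 that encode other proteins, 11 had them (30.6%). The 11 were tef101, tef102, tef103, sks2, tef3, cpc2, tif1, ilv5, tpi1, btf3 and tma19. In the 90 ribosomal protein promoters the box began at a median of 51.5 bases before the transcript start, with the middle 50% from 57 to 47 bases before it. Ribosomal protein genes with the letters had a median of 993.6 RPKM and those without 798.7. The second element, HomolE (the letters ACCCT 2 times in a row, either strand), was found for 41 of the 142 (28.9%) and for 1.25% of all promoters. The windows below show the box, in capitals, in rpl8, the highest ribosomal protein gene that has it, and in both members of the 2 least even pairs, whose high and low copies both hold it. In the third such pair, rpl34, only the high copy rpl3401 held it. Each line is 60 bases of the coding strand, 5′ to 3′, and TGTGACTG is the same box on the other strand.
rpl8: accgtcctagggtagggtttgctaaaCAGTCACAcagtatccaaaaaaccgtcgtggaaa
rpl101: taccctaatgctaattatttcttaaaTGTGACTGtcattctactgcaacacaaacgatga
rpl102: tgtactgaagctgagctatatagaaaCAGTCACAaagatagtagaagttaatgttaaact
rpl3001: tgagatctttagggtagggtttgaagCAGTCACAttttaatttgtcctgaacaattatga
rpl3002: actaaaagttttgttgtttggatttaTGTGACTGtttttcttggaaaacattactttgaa
The box began 43 bases before the transcript start in rpl8, 56 in rpl101, 57 in rpl102, 48 in rpl3001 and 55 in rpl3002. In the 3 even pairs only rps1601, rpl3702 and rpl2701 had it, although the members of each pair were at nearly the same level. A match describes the letters in this window and no binding was measured.

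The abundant genes also differed from the rest in their coding sequence. The median coding length of the first 100 genes was 604.5 bases against 1140 over all protein-coding genes, and 34.0% had an intron against 46.7%. Among the ribosomal protein genes 51.4% had an intron. The third codon position held G or C in 48.0% of codons of the first 100 genes, 32.8% of all genes and 32.0% of near silent genes. Lysine was encoded by AAG in 87.7% of cases against 37.4% over all genes and 30.2% in near silent genes. Asparagine was encoded by AAC in 79.7% against 33.96%, arginine by CGT in 74.5% against 30.9%, phenylalanine by TTC in 69.3% against 28.1% and histidine by CAC in 67.0% against 27.6%. Without the ribosomal proteins, the remaining 36 of the first 100 genes used AAG in 90.2% of lysines, so the preference was not limited to ribosomal proteins.

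At the other end, 76 genes were near silent, with a mean under 1 RPKM, and 68 of them were under 1 in every sample. The threshold cuts a continuous range. Just under it were meu13 (0.981 RPKM), a meiotic pairing gene, the subtelomeric helicase gene tlh1 (0.973) and SPAC212.12 (0.945), and just over it SPAC9E9.17c (1.01), SPAC750.07c (1.02) and SPAC186.06 (1.02). No read was counted for SPBPB21E7.05 in any sample, which allows up to 0.290 RPKM at its length of 384 bases, and 16 genes had at most 3 counts in each sample. Some listed features outside the ranked genes, and so outside the 76, also had 0 RPKM in every sample. These were SPBC460.01c, SPBC460.02c, vba2, SPBC460.04c, SPBC460.05 and the mating-type features mat2-Pc, mat2-Pi, mat3-Mm and mat3-Mc. The genome build is not given, so whether reads could be assigned to these features is unknown, and 0 need not mean no transcript. Among the 76 near silent genes, the products of 30 (39.5%) are annotated as uncharacterized, against 7.21% of all genes.

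Of the 22 near silent genes with a symbol, the lowest was mug96, with 0.0799, 0.0799, 0 and 0.0797 RPKM, which is 1 read at most in a sample. It was followed by the membrane protein genes ftm7, ftm3 and ftm6, the cation-binding domain gene hry1 and ftm2, all under 0.15 RPKM in the mean. The next were ayr2 (0.270 ± 0.238 RPKM), a dehydrogenase gene, mel1 (0.271 ± 0.128), which splits galactosides, fub2 (0.376 ± 0.146), a relative of a proteasome regulator, and pcm2 (0.401 ± 0.126), a protein repair methyltransferase gene. At such counts single reads decide the order. Short windows of the coding sequence found nowhere else in the reference genome made up 12.5% for ftm7 and 2.5% for ftm6. They made up 0% for ftm3, ftm2, ayr2 and SPAC212.12 and 0.89% for tlh1. For mug96, hry1, mel1, fub2 and pcm2 they made up 100%. Reads from repeated sequence may be placed on another copy or left out, so levels of the genes with few such windows are uncertain. Others under the threshold were bqt2 (0.648 RPKM), which gathers telomeres in meiosis, mei3, pdc102 and ght7, the lowest members of the pyruvate decarboxylase and hexose transporter families in the case of the last 2.

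Near silent genes clustered at the ends of chromosomes I and II. Within 100 kb of an end of chromosome I or II lay 51 of the 76 (67.1%), against 2.43% of all protein-coding genes. Of the 124 genes in these regions 51 (41.1%) were near silent and the median was 2.25 RPKM. Elsewhere 0.502% were near silent and the median was 35.1 RPKM. The ends of chromosome III, which carry the rDNA repeats, did not share the clustering. Counting them in brought the genes within 100 kb from 124 to 189, but the near silent ones only from 51 to 52. Repeated sequence bears on these values, because reads from identical copies may be placed on any of them or left out. The coding sequence of 31 of the 76, all of them in these regions, was repeated elsewhere in the reference genome for more than 50% of its windows of 50 bases, and so was that of 2.08% of all genes. Among genes with no repeated window, 20 of 62 in these regions (32.3%) and 0.515% elsewhere were near silent, with medians of 3.28 and 35.0 RPKM.

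Some genes near the ends were well expressed. The 5 highest were SPAC922.04, an uncharacterized gene, with 653.5, 857.2, 663 and 648.8 RPKM, then pho84, the aldo-keto reductase gene SPAC977.14c (177.2 ± 16.4), the L-asparaginase gene SPBPB8B6.05c (110.2 ± 8.80) and pho1. The first, highest in replicate 2, lay 98.6 kb from the end, and pho84 and pho1 also lay at 93.6 and 90.8 kb, near the inner border of the region, whereas SPAC977.14c and SPBPB8B6.05c lay at 59.6 and 54.3 kb.

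**Figure D4:**
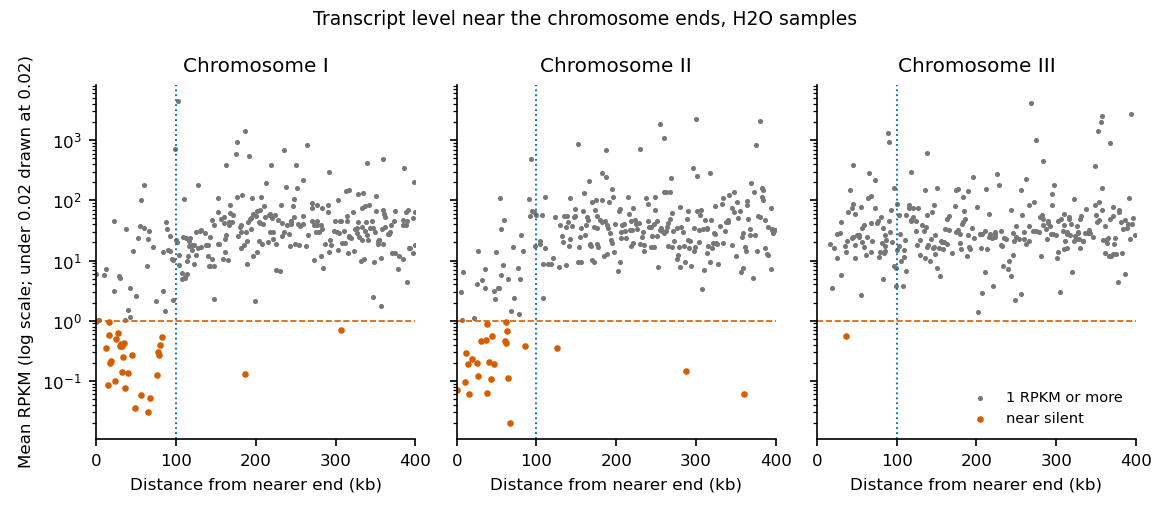
Mean RPKM (log scale) of each protein-coding gene against its distance (kb) from the nearer end of its chromosome in the reference assembly, with near silent genes in orange, the threshold of 1 RPKM dashed and 100 kb dotted. Orange points gather left of the dotted line on chromosomes I and II, and chromosome III has 1 there.

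The samples agreed closely for most genes. Over the 4935 genes with a mean count of at least 100, the median coefficient of variation of RPKM was 5.68%, the 90th percentile 11.1% and the 99th 18.9%. The highest and lowest sample differed at least 2-fold for 4 genes and the coefficient exceeded 20% for 36. The most variable was mug14, a gene induced in meiosis, with 5.20, 13.1, 7.21 and 6.32 RPKM, and the next was inv1, the glucose-repressed invertase gene, with 10.4, 22.3, 13.4 and 11.1. Replicate 2 was highest for both. It was followed by SPBC1921.04c (6.98, 10.95, 13.03 and 6.31 RPKM), cmt2 (3.92, 7.32, 5.02 and 3.65) and mug114 (6.46, 7.97, 4.26 and 4.32).

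Of the 30 genes with the largest coefficients, 16 were highest in replicate 2, 8 in replicate 1, 3 in replicate 3 and 3 in replicate 4. Over all 4935 genes the shares that were highest in replicates 1 to 4 were 21.2%, 36.0%, 12.5% and 30.3%, so replicate 2 was also the most frequent maximum there. Picked after their values were seen, the genes highest in replicate 2 include the glucose-repressed genes inv1, fbp1 and agl1, the metallothionein gene zym1 and the stress gene hsp9, with 180, 286.3, 219.2 and 178.6 RPKM. The list of starvation-induced and glucose-repressed genes as a whole did not share this order, since 11 of its 17 genes were highest in replicate 1 and 5 in replicate 2. The variable genes highest in replicate 1 include ght5 and scr1, the glucose repressor gene, with 30.2, 18.8, 18.6 and 25.1. The ribosomal protein gene rpl14 was highest in replicate 3, at 1052, 1170, 1643 and 1159 RPKM, as was the sum of its class. The deviation of a gene from its mean followed feature length weakly, with Spearman values across genes of 0.202, -0.168, -0.0831 and 0.0435 in replicates 1 to 4. The parts of length and of the rRNA share in these patterns were not tested.

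**Figure D5:**
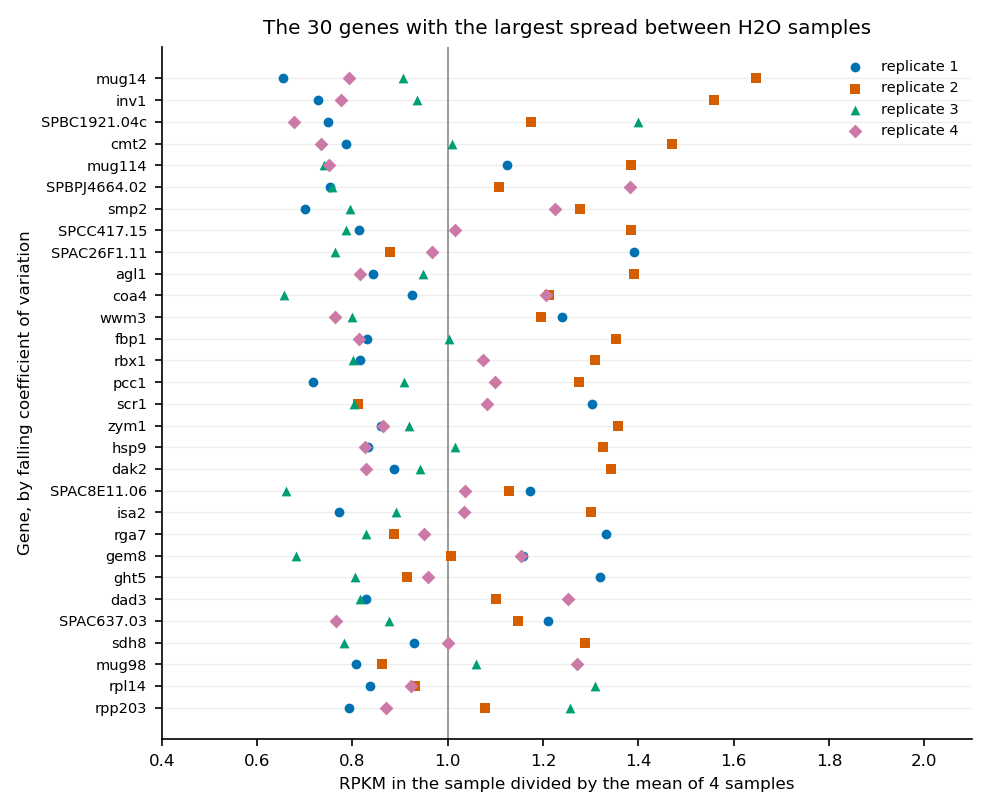
RPKM in each sample divided by the mean of the 4 samples for the 30 genes with the largest coefficient of variation among genes with a mean count of at least 100. For 16 of the 30 the square of replicate 2 is the rightmost point.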

How the data were processed

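The 4 H2O samples were grouped by their titles. The authors deposited 1 table per sample with the read count, length and RPKM of each feature, per the file headers. The deposited count is a whole number, and the deposited RPKM equalled the count divided by the length and the column total. Per the submitters' processing notes BWA 0.7.12 was used; its role, the counting program, the genome build and the strand setting are not given in the sources used here. Some neighbouring features had nearly the same counts, and how reads of overlapping features were counted is not given. Names, classes, overlaps, exon lengths and sequences came from RefSeq ASM294v3, matched by identifier for 6845 of 7015 features, and no coordinates are given.

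Each list's share of the summed protein-coding RPKM, paralogue shares and coefficients of variation were computed per sample in Python 3.11.15 (pandas 2.3.3, Biopython 1.88), after tests on simulated data. There is 1 group, so no test was run; an exact paired test over 4 samples cannot go below 0.125. Named genes were the 15 highest, the 3 highest and the lowest of each list, all listed paralogues, the 3 most and 3 least even ribosomal families, the 10 lowest with a symbol, 3 on each side of the threshold and the 5 most variable; others were chosen after their values were seen. Genes and lists were chosen with earlier results of these data known, and a few list patterns were corrected after values were seen. Some families are not reported here.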

Additional observations from a re-analysis of the deposited data

Results flagged for a closer look

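Among 172 values checked in the 4 samples, 4 had a single sample far from the other 3, and chance flags about 1 in 20 groups. The share of the pool held by genes in no list was 38.1% in replicate 3 and 40.5% to 40.6% in the others. The level of ole1 was 1636 RPKM in replicate 1 and 1390 to 1420 in the others. The level of mts4 was 141.5 RPKM in replicate 3 and 132.8 to 134.2 in the others. The level of zym1 was 16.7 RPKM in replicate 2 and 10.6 to 11.3 in the others.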

How the results depend on the processing

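No paired analysis was possible because the 4 samples form 1 group and no contrast was made. As a share of reads, ribosomal proteins held 12.3%, translation factors 6.67% and glycolysis 5.74%, 323 genes held 50% of the pool and 5 ribosomal families had a leader of at least 75%. Among features that overlap no protein-coding neighbour, these 3 classes held 30.8%, 5.92% and 8.07%, and 114 of 2926 genes (3.90%) held 50%, nearly the same share of genes as the 3.94% over all. Alternatives chosen after seeing the data gave 5.65% and 5.94% for translation factors and glycolysis with RefSeq exon lengths, 6.41% and 6.77% without features whose count follows a neighbour, and 45 near silent genes with unique sequence only. The leading member changed by reads for myo2 (48.2%), rps602 (47.7%), rpl1201 (48.7%) and rpl1701 (47.1%). Leaving out each replicate gave rps1601 49.9996% to 51.6%, with the lead lost without replicate 4. Leaving out each replicate in turn gave 27.3% to 28.3% for ribosomal proteins, 6.19% to 6.30% for translation factors, 6.48% to 6.61% for glycolysis, 198 to 208 genes for 50% of the pool, 74 to 76 near silent genes and 8 to 9 ribosomal families. Near silent genes numbered 54 under 0.5 RPKM and 113 under 2. The cause of these shifts was not tested beyond the change each setting makes. Depth limits the order of genes with a few reads, and copies with identical sequence cannot be told apart.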

Other observations

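Genes of the mitochondrial genome are listed among the features. The matching of identifiers to the annotation did not class them as protein-coding, so they stand outside the pool described above. Their levels were high, and in 10 of 11 such features, all but var1, replicates 2 and 4 both lay above replicates 1 and 3. The same held for 43.1% of the 4935 protein-coding genes with a mean count of at least 100. The gene cox2 had 1922, 2375, 1838 and 2390 RPKM in replicates 1 to 4, and cox1, which encodes the catalytic subunit of cytochrome oxidase, had 1010, 1293, 1009 and 1365. The gene cob1 of the cytochrome bc1 complex had 778.2, 998.3, 731.2 and 987.2 RPKM, and cox3 had 1230, 1511, 1169 and 1605. The ATP synthase gene atp9 had 1727, 2069, 1799 and 1932 RPKM, whereas atp8, on a feature of 147 bases, had 11.3, 23.7, 11.3 and 16.1. The mitochondrial ribosomal protein gene var1 had 62.4, 101.8, 76.4 and 75.6 RPKM, with replicate 2 highest. By comparison, the nuclear genes atp2 and cyc1 of the same organelle were at 605.4 and 488.6 RPKM in the mean. The relation of these levels to RNA preparation was not tested.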
